A study of Mus musculus with 8 samples.

Results

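The 4 opioid receptor genes of the mouse, Oprm1, Oprd1, Oprk1 and Oprl1, were followed across every cell cluster and strain of a single-nucleus survey of the striatum. The members were chosen by name, as 4 of the 32285 genes in the count matrices. Nuclear RNA had been read with the 10x Genomics Multiome assay, which captures RNA and open chromatin from the same nucleus, in frozen striatum of 32 mice at 12 weeks of age, and no treatment is named. Inbred strains form the 8 groups. Of these, 3 are wild-derived, CAST/EiJ, PWK/PhJ and WSB/EiJ, and the rest are the classical strains NZO/HlLtJ, NOD/ShiLtJ, C57BL/6, A/J and 129S1/SvImJ. A batch held 1 mouse per strain, mixed before capture, so that a strain has 4 mice and a mouse is identified by its batch and strain. The comparison asks how the genetic background bears on expression in striatal cells. The sex of each mouse is not given in the sources used here, so its part in a difference between strains was not tested. C57BL/6 is written without its substrain, because the study's design text and its nucleus table name different ones.

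Opioid receptors are seven-transmembrane proteins that couple to inhibitory G proteins of the Gi and Go class. Their activation lowers cyclic AMP, opens inwardly rectifying potassium channels and closes voltage-gated calcium channels. Oprm1 encodes the mu receptor, the main target of morphine and fentanyl, Oprd1 the delta receptor, the preferred target of enkephalins, and Oprk1 the kappa receptor, the target of dynorphins. Oprl1 encodes the receptor of nociceptin, which binds classical opioids poorly. In the striatum, enkephalin comes from the Penk gene of Drd2+ projection neurons and dynorphin from the Pdyn gene of Drd1+ projection neurons. Dense patches of mu receptor define the striosomes, compartments that lie within the surrounding matrix.

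The 4 batches held 15367, 15626, 11826 and 12853 annotated nuclei, 55672 in all, with median unique molecular identifiers (UMIs) per nucleus of 4842, 4931, 3232 and 4593. The authors had sorted these nuclei into 18 named clusters. Receptor UMIs were few: 11070 for Oprm1, 5750 for Oprd1, 8163 for Oprk1 and 1048 for Oprl1 over all nuclei. Levels by cluster are given in CPM, a gene's count scaled to a cluster total of 1000000. In results by strain and in tested comparisons, CPM is over the TMM-scaled total, the counts of tested genes in a library, scaled between libraries. These scales give different values for the same nuclei. Levels are compared between clusters or strains for the same gene, not between genes. Of the barcode sequences, 1517 occurred in 2 or more batches, in 3048 nuclei.

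Promoter windows of 3 of the receptors are shown, since the RefSeq windows used here held none for Oprk1. They differ in base composition and in how peaks of open chromatin lie over them. Windows are the 250 bases upstream of a start site, 5′ to 3′, from RefSeq for build GRCm38.p6, with capitals marking motifs searched on both strands. Oprd1 lies on the minus strand of chromosome 4 (132110188 to 132144486), and its window is chr4:132144487-132144736.
Oprd1: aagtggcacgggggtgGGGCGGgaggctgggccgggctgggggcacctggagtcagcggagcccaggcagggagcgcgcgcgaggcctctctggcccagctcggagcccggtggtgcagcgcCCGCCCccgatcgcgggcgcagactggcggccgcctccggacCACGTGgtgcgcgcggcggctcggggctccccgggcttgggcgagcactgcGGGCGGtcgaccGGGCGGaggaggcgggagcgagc
Oprm1 lies on the plus strand of chromosome 10 (6758593 to 7038209), with 3 start sites in the RefSeq table, at 6758593, 6788570 and 6788576. The window before the second is chr10:6788320-6788569.
Oprm1: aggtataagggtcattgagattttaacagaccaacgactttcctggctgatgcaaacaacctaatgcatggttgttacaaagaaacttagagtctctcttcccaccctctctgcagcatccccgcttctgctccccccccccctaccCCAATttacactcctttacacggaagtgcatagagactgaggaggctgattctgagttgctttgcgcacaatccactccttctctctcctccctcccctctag
Oprl1 lies on the plus strand of chromosome 2 (181715000 to 181720985), also with 3 start sites, and the window before the first is chr2:181714766-181715015.
Oprl1: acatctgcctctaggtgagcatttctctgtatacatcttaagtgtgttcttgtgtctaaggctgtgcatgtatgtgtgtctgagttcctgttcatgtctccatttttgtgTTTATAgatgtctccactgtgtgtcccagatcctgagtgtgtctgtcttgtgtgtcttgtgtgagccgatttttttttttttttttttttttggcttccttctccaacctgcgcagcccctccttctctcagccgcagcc
The Oprd1 window is 80% G and C, against a median of 52.4% over 32851 windows of the same length. It holds 4 GC boxes (GGGCGG), a motif found in 32.7% of all windows, and 1 E-box (CACGTG), found in 6.02%. The Oprm1 window is 50% G and C and holds 1 CCAAT box, found in 33.8% of windows. The Oprl1 window is 44.4% G and C, and its capitals mark 1 TATA box (TATAAA, on the other strand), found in 12.4%. No cAMP response element (TGACGTCA) is written in these 3 windows, and 1.55% of all windows hold one. In the authors' deposited index of accessible regions, a peak from 132143998 to 132144997 covers all 250 bases of the Oprd1 window. The Oprl1 window lies whole in the peak from 181714070 to 181715069, while its other start sites lie 279 and 621 bases from that peak, with windows that hold 0 of its bases. The nearest peak to the second Oprm1 start site, from 6788610 to 6789609, starts 40 bases from that site and covers 0 bases of the window. The windows of the other Oprm1 start sites also hold no base of a peak, the first site lying 12207 bases from the nearest and the third 34. The peaks named here all have the same length, and whether their edges mark the limits of open chromatin was not tested. Which window is shown for Oprm1 and Oprl1 was chosen with these positions known.

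Over the whole gene bodies, 48 peaks overlapped Oprm1, which is 279617 bases long, against a median of 46 for 771 genes of like length. Oprd1 had 11 peaks against a median of 6 for like length. Oprk1 (chromosome 1, 5588450 to 5606134) had 3 against 3, and Oprl1 had 2 against 1. Of the 48 peaks over Oprm1, 32 also lie over Ipcef1, a gene of the opposite strand (6885779 to 7054782) that shares 152431 bases with it. Whether counting used the strand is not given in the sources used here. It is thus not known here whether reads of Oprm1 and Ipcef1 were kept apart in the shared stretch. Values of Ipcef1 are therefore given beside the Oprm1 results. The index is 1 list of positions with no sample attached, so it says nothing of strains.

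Each receptor had its own order of clusters, given here as a description, since the clusters had been made from all genes. Oprm1 was highest in Chat+ interneurons, at 161 ± 30.5 CPM (SD over 4 batches, range 122 to 191), and in Slc17a7+ neurons, at 161 ± 18.2 (144 to 186), with overlapping ranges. Over all nuclei pooled, Slc17a7+ neurons had 155 CPM and Chat+ interneurons 149. The second Drd1+ cluster followed at 125 ± 11.1 (113 to 140). All 5 markers of eccentric projection neurons fixed for the check were highest in that second Drd1+ cluster, and all 5 cholinergic markers in the Chat+ cluster. The second Slc17a7+ cluster had 75.4 ± 10.3, macrophages 64.8 ± 4.68, Sst+ interneurons 61.1 ± 16.9 and Nxph1+ interneurons 46.5 ± 12.5. The 2 large projection neuron clusters lay below these, Drd1+ neurons at 44.9 ± 2.43 (43.0 to 48.4) and Drd2+ neurons at 37.7 ± 1.92 (35.5 to 40.2). In nuclei without a UMI of Ipcef1, the overlapping gene, Nxph1+ interneurons had 35.5 CPM and stood below Drd1+ neurons at 40.6. By their size, Drd1+ and Drd2+ neurons still held 41.8% and 27.7% of all Oprm1 UMIs. Next in the order were ependyma at 31.6 CPM, the cluster named mural cells at 30.7 and endothelium at 25.7. The batch ranges of Drd2+ neurons and ependyma overlapped. The part of projection neuron RNA in these values was not tested. Oligodendrocytes, with 2.82 ± 1.09, and astrocytes, with 2.71 ± 0.831, were near the bottom of the order. Fibroblasts had 0 UMIs in 132 nuclei with a median depth of 1644 UMIs. That count of 0 allows a share of up to 2.27% of nuclei with a UMI (3 counts of the total), and sets no limit on nuclei that express the gene. Of the 17 pairs of neighbours in this order, 3 had batch ranges that did not overlap: Slc17a7+ over second Drd1+, second Drd1+ over second Slc17a7+, and Drd1+ over Drd2+. In nuclei without an Ipcef1 UMI the first of these gaps closed, while the others stayed. Slc17a7+ neurons there had 111 ± 34.0 CPM (82.4 to 160) and the second Drd1+ cluster 110 ± 8.14 (103 to 119).

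Oprd1 was concentrated in 2 kinds of neuron. Chat+ interneurons had 163 ± 22.9 CPM (136 to 191) and Drd2+ neurons 61.9 ± 7.30 (55.0 to 71.7), and the Drd2+ cluster held 85.9% of all Oprd1 UMIs. Drd1+ neurons had 1.65 ± 0.289 CPM. The ranges of Chat+ and Drd2+ batches did not overlap, and the only other such gap of the 17 lay between the cluster Polydendrocyte/Oligodendrocyte, at 6.04, and Drd1+ neurons. The second and first Slc17a7+ clusters had 20.7 ± 4.82 and 16.9 ± 3.63, and the second Drd1+ cluster 8.36 ± 2.41. Sst+ interneurons had 1 UMI in all. The cluster named mural cells stood at 26.9 ± 28.7, with 69.6 in batch 3 and 8.27 to 17.6 in the others. The mural nuclei with an Oprd1 UMI, 23 of 390, had a median of 7219 UMIs against 1413 in the rest. Their 6 pan projection neuron markers summed to 6098 CPM against 4367, and their mural markers to 1920 against 4627. The part of projection neuron RNA in the mural value was not tested.

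Oprk1 was counted mainly in projection neurons. Drd1+ neurons had 45.8 ± 9.37 CPM (37.3 to 56.2) and Drd2+ neurons 36.9 ± 6.38 (31.3 to 44.1), and these clusters held 56.6% and 35.8% of its UMIs. The second Slc17a7+ cluster had 35.5 ± 21.3 (17.7 to 63.7), while the first Slc17a7+ cluster had 1.75 ± 0.867. The cluster named mural cells had 27.1 CPM, above the second Drd1+ cluster at 23.9 ± 3.39. Ependyma had 15.4 and endothelium 13.5. The part of projection neuron RNA in the mural, ependyma and endothelium values was not tested. Chat+ interneurons, where Oprd1 was highest and Oprm1 was at the level of Slc17a7+ neurons, had 3.63 CPM of Oprk1 from 2 nuclei. None of the 17 neighbour pairs had ranges apart for Oprk1, nor for Oprl1.

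Oprl1 was counted rarely in every cluster. Its highest level was 22.0 ± 11.2 CPM in Sst+ interneurons (13.0 to 36.3, from 15 UMIs), then 13.1 ± 4.51 in Nxph1+ interneurons, 12.5 ± 1.50 in the second Drd1+ cluster and 9.99 ± 1.04 in Slc17a7+ neurons. Drd1+ neurons had 4.24 ± 0.744 and Drd2+ neurons 2.89 ± 0.562. The background of oligodendrocytes was 1.43 ± 0.961 from 33 UMIs.

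**Figure D1:**
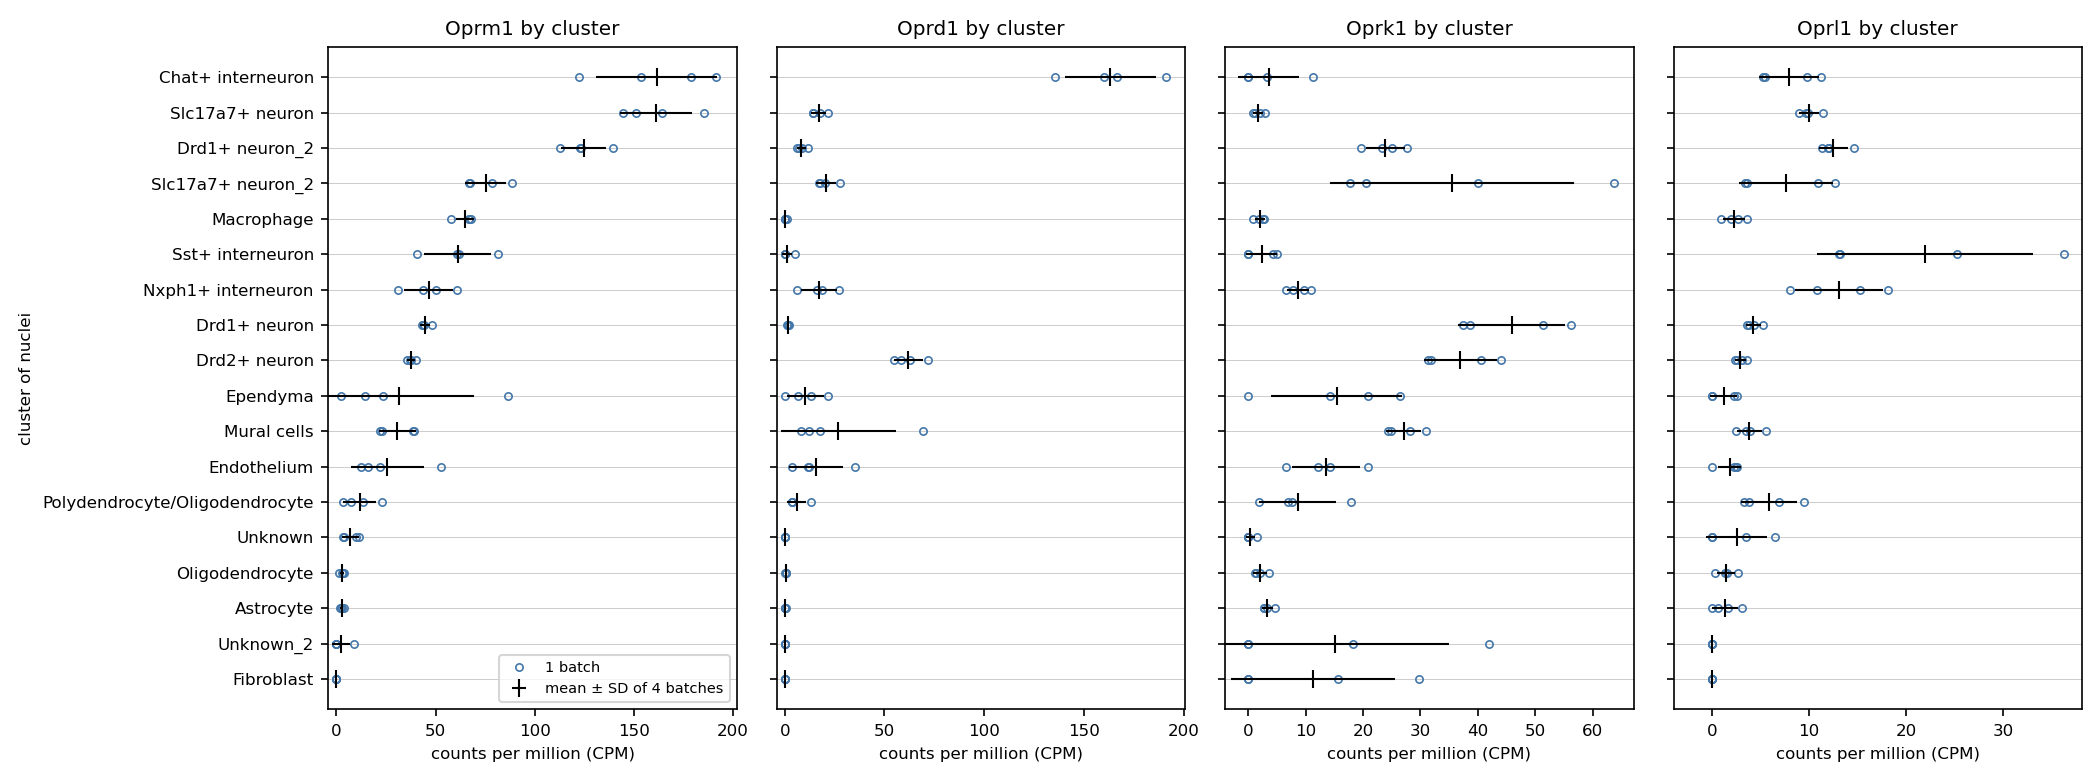
Level of each opioid receptor in the 18 clusters, in CPM on a linear axis that differs between panels. Open circles are the 4 batches and crosses the mean ± SD. Chat+ interneurons and Slc17a7+ neurons have the most Oprm1, Chat+ interneurons and then Drd2+ neurons the most Oprd1, Drd1+ and Drd2+ neurons are among the highest for Oprk1, and Sst+ interneurons have the widest spread for Oprl1.

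Counted per nucleus, an Oprm1 UMI was seen in 62.5% of Slc17a7+ neurons, 56.7% of Chat+ interneurons, 34.7% of the second Drd1+ cluster, 18.2% of Drd1+ neurons (exact 95% interval 17.6% to 18.8%) and 15.3% of Drd2+ neurons. In oligodendrocytes, which serve here as the background of free RNA, the share was 0.481%. An Oprd1 UMI was seen in 63.3% of Chat+ interneurons (54.1% to 71.9%), 26.9% of Drd2+ neurons, 0.935% of Drd1+ neurons and 0.0829% of oligodendrocytes. An Oprk1 UMI was seen in 22.3% of Drd1+ and 17.3% of Drd2+ neurons, and in 0.373% of oligodendrocytes. The median depth was 8370.5 UMIs in Chat+ interneurons, 6505 in Drd1+ neurons and 1640 in oligodendrocytes. With every nucleus thinned to 1000 UMIs, the Oprm1 share was 14.1% in Slc17a7+ neurons, 13.4% in Chat+ interneurons, 12.2% in the second Drd1+ cluster, 4.52% in Drd1+ neurons, 3.55% in Drd2+ neurons and 0.273% in oligodendrocytes. Thinned Oprd1 shares were 14.3% in Chat+ interneurons, 5.82% in Drd2+ neurons, 0.138% in Drd1+ neurons and 0.0489% in oligodendrocytes. Thinning left out 10 Drd1+ nuclei, 10 Drd2+ nuclei and 986 oligodendrocytes. Intervals and limits on shares cover counting error only.

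Of the Chat+ nuclei, 40% held UMIs of exactly 2 receptors, against 12.8% of Slc17a7+, 9.93% of Drd2+ and 5.18% of Drd1+ nuclei. Any of the 4 receptors was seen in 82.5% of 120 Chat+ nuclei, 69.2% of Slc17a7+ nuclei, 49.0% of Drd2+ nuclei and 38.5% of Drd1+ nuclei. Among Chat+ nuclei, 47 held both Oprm1 and Oprd1. In Drd2+ neurons Oprd1 was seen in 26.8% of nuclei with an Oprm1 UMI and in 26.9% of those without. Oprk1 was seen in 21.6% of Drd2+ nuclei with an Oprm1 UMI and in 16.6% of those without. Of the Drd1+ nuclei, 144 held an Oprd1 UMI. Their Drd2 level was 119 CPM against 10.3 in the other Drd1+ nuclei, their Penk level 393 against 100, and their Drd1 level 159 against 220. The part of Drd2+ RNA in these 144 nuclei was not tested.

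Within a mouse, Oprd1 separated the 2 projection neuron types most. The log2 ratio of Drd2+ over Drd1+ neurons was 4.75 ± 0.46 for Oprd1 (SD, n = 32 mice), higher in Drd2+ neurons in 32 of 32 mice. These ratios are of log2 CPM with a prior count of 2, which draws the ratio of a gene with few counts towards 0, and Oprd1 had 2 to 12 UMIs per mouse in Drd1+ neurons. With a prior count of 0.5 the Oprd1 ratio was 5.15. With the prior count of 2, the ratio was -0.32 ± 0.29 for Oprk1, with 27 of 32 mice higher in Drd1+ neurons. For Oprl1 it was -0.49 ± 0.56, with 28 mice higher in Drd1+ neurons. For Oprm1 it was -0.26 ± 0.53, with 21 mice higher in Drd1+ and 11 in Drd2+ neurons. These ratios describe the clusters and carry no test.

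Strains were compared by adding up the counts of each mouse within a cluster and testing the strain term with edgeR's quasi-likelihood test, adjusted by Benjamini-Hochberg over all genes of the cluster and called under 0.05. In Drd1+ neurons 3 of the 4 receptors had enough counts to be tested, and 2 were called, where 61.7% of all genes were. In Drd2+ neurons all 4 were tested and 3 called, against 55.9% of all genes. A strain difference by itself is thus common among genes in these clusters, and the receptors are described by its size and direction. The build named in the processing notes is mm10 (GRCm38), and the part of read mapping to it in a strain difference was not tested. Oprd1 in Drd1+ neurons, with 167 UMIs, was too low to test.

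Oprm1 in Drd1+ neurons was lowest in NOD/ShiLtJ, whose 4 mice had 29.4, 19.9, 27.3 and 18.9 CPM. It was highest in PWK/PhJ, with 57.9, 53.7, 60.6 and 61.8 CPM, and in NZO/HlLtJ, with 59.7, 62.6, 56.2 and 50.0 CPM. The NOD/ShiLtJ range did not overlap either of these ranges. Means were 23.9 ± 5.26 CPM in NOD/ShiLtJ and 58.5 ± 3.61 in PWK/PhJ, a 2.45-fold difference (strain term F = 12.8, adjusted p = 1.58e-06 with edgeR, at most 1.81e-04 under the alternatives). WSB/EiJ (33.0 ± 6.81) and C57BL/6 (36.3 ± 7.73) were next above NOD/ShiLtJ, and A/J (47.2), CAST/EiJ (48.1) and 129S1/SvImJ (52.4) lay between. No pair of neighbours in the strain order had ranges apart. Against the mean of the other 7 strains, NOD/ShiLtJ was lower by a log2 fold change of -0.99 (SE 0.15, adjusted p = 1.58e-05 with edgeR, a contrast in which 6.48% of genes were called lower). PWK/PhJ was higher by 0.52 (adjusted p = 9.33e-04, with 17% of genes called higher) and NZO/HlLtJ by 0.48 (adjusted p = 0.00420, with 11%). WSB/EiJ was lower by -0.44 (adjusted p = 0.0219, with 7.3% called lower) and 129S1/SvImJ higher by 0.36 (adjusted p = 0.0461, with 7.72% called higher). The WSB/EiJ call was lost without batch 1 (-0.26, adjusted p = 0.282) and without batch 3 (adjusted p = 0.0873). The 129S1/SvImJ call was lost without batch 1 (0.145) and without batch 2 (log2 fold change 0.20, adjusted p = 0.379).

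Other values in the same Drd1+ libraries did not follow Oprm1 in one direction. Ipcef1 was also lowest in NOD/ShiLtJ (3.14 CPM) and highest in PWK/PhJ (9.89), with an adjusted p of 2.05e-04 in edgeR. The 14 other striosome genes summed to 1913 CPM in C57BL/6 and 2595 in CAST/EiJ, the lowest and highest strains, and to 2515 in NOD/ShiLtJ, where Oprm1 was lowest. The part of either in the Oprm1 difference was not tested. In Drd1+ nuclei without an Ipcef1 UMI, Oprm1 was 40.6 CPM, against 44.9 in all.

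Oprm1 in Drd2+ neurons had another order of strains. NZO/HlLtJ was highest, with 75.8, 59.8, 57.5 and 55.9 CPM in its 4 mice, and C57BL/6 lowest, with 23.5, 19.0, 25.9 and 18.2. These ranges did not overlap, and NZO/HlLtJ also lay wholly above A/J, the next strain, with a highest mouse of 47.9 CPM. The means were 62.2 ± 9.15 and 21.6 ± 3.65 CPM, a 2.88-fold difference (F = 5.91, adjusted p = 0.00171 with edgeR, at most 0.0394 under the alternatives). The remaining 6 strains had means of 31.4 to 40.4 CPM. The widest of these was 129S1/SvImJ, with 27.4, 67.9, 35.0 and 22.0 CPM. Against the other 7 strains NZO/HlLtJ was higher by 0.93 (SE 0.17, adjusted p = 3.96e-04 with edgeR, with 10.8% of genes called higher). C57BL/6 was lower by -0.83 (SE 0.22, adjusted p = 0.0155 with edgeR, with 4.25% called lower), and this call was lost without batch 3 (adjusted p = 0.0633). The striosome sum without Oprm1 was also highest in NZO/HlLtJ (1668 CPM) and lowest in 129S1/SvImJ (1067), with 1303 in C57BL/6. Ipcef1 was lowest in C57BL/6 (4.49 CPM) and highest in PWK/PhJ (20.2), with an adjusted p of 1.95e-07 in edgeR. The part of these in the Oprm1 difference was not tested.

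**Figure D2:**
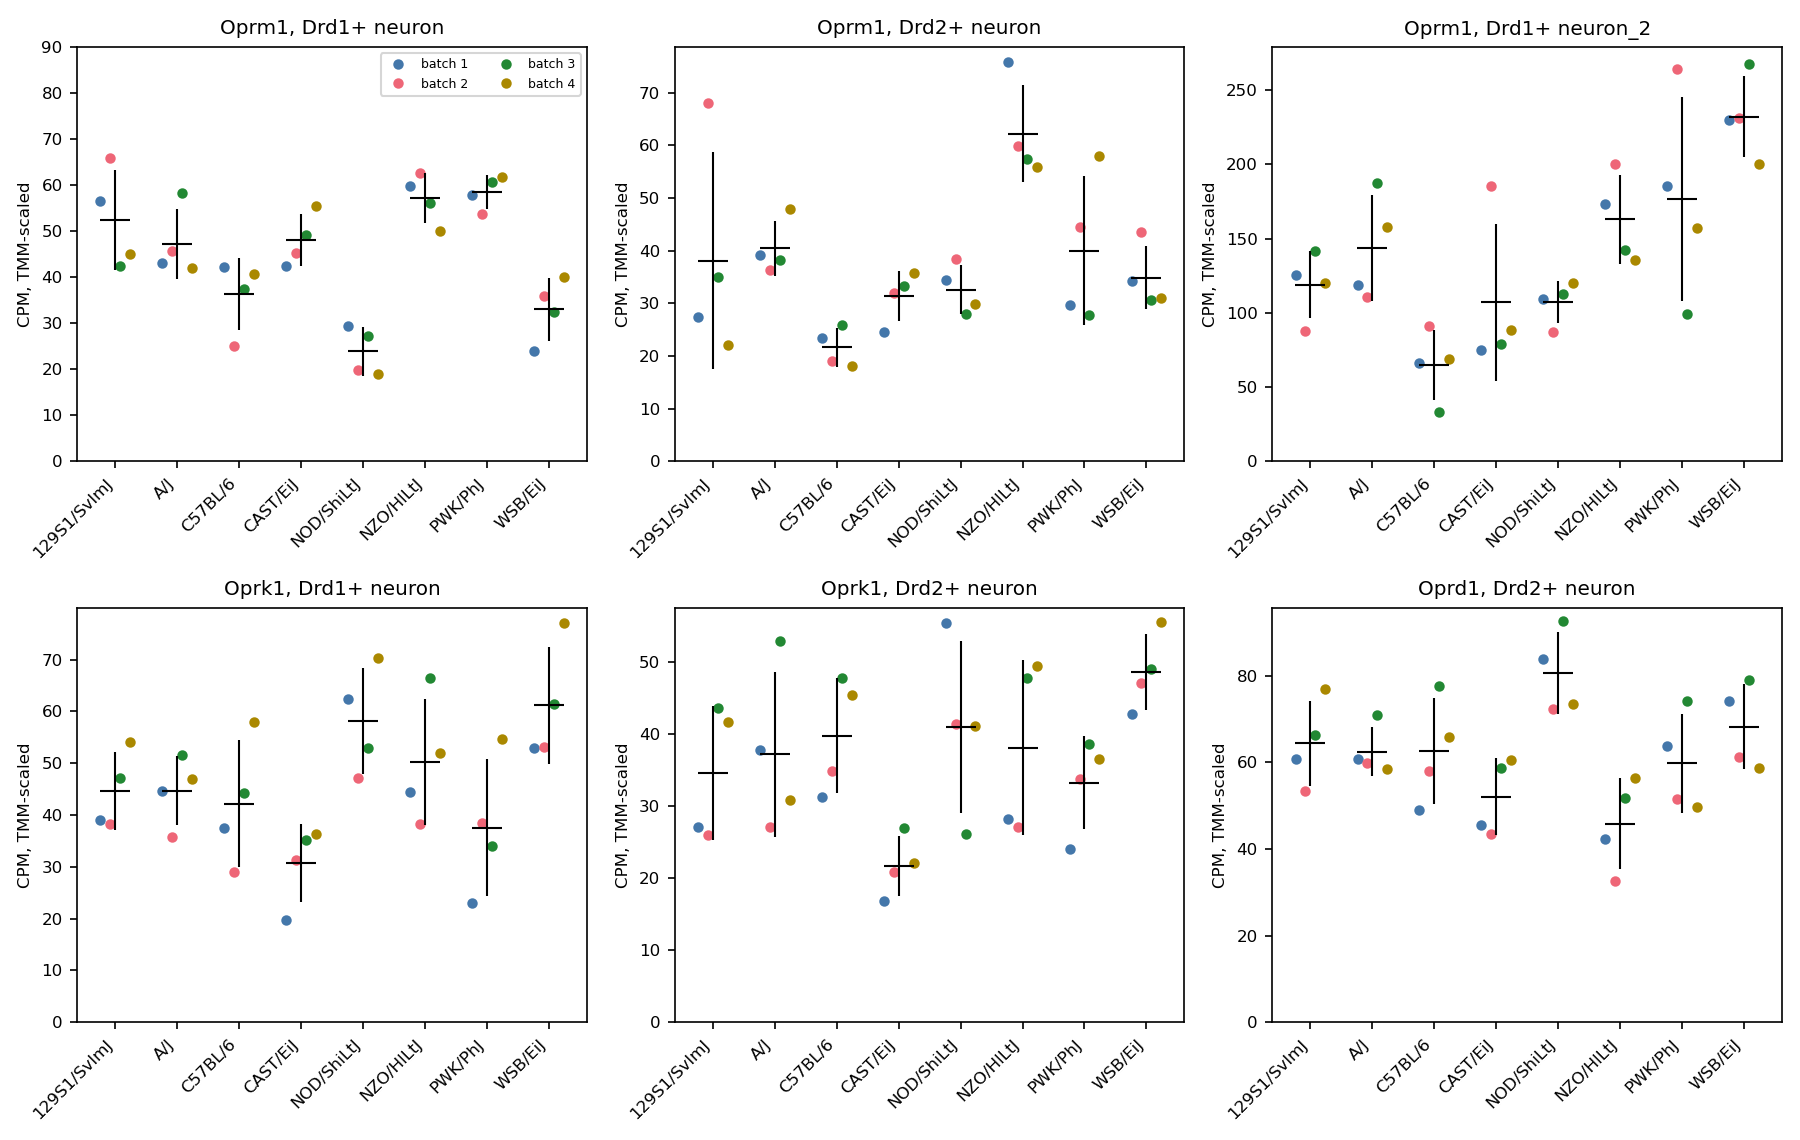
Receptor levels per mouse in CPM (counts over the TMM-scaled library total), by strain, for 6 combinations of receptor and cluster with a called strain term. Points are mice coloured by batch, and bars are the mean ± SD of 4 mice. Oprm1 is low in NOD/ShiLtJ in Drd1+ neurons, high in NZO/HlLtJ in Drd2+ neurons and high in WSB/EiJ in the second Drd1+ cluster.

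The strain effect on Oprm1 was tested for a difference between the 2 projection neuron types. With the mouse as a block, the strain by cluster interaction had an adjusted p of 0.0363 in edgeR (F = 4.85), where 4.58% of 13791 genes were called. The mean log2 ratio of Drd2+ over Drd1+ neurons ran from -0.72 in C57BL/6 to 0.45 in NOD/ShiLtJ, with SDs of 0.33 and 0.40 (n = 4 mice). All 4 NOD/ShiLtJ mice were higher in Drd2+ neurons (0.03 to 0.92). All 4 mice of C57BL/6 (-1.13 to -0.39), CAST/EiJ (-0.77 to -0.50) and PWK/PhJ (-1.11 to -0.09) were higher in Drd1+ neurons. The call was lost without the block (adjusted p = 0.198), without batch 1 (0.313) and without batch 3 (0.150). It held without batch 2 (0.0396), without batch 4 (0.00490) and with no filter on low counts (7.64e-06). For Ipcef1 the interaction had an adjusted p of 0.00403 in edgeR, and that call too was lost without the block (0.349), without batch 1 (0.0686) and without batch 3 (0.0572). For Oprd1, Oprk1 and Oprl1 it was 0.719, 0.667 and 0.802, which did not pass.

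**Figure D3:**
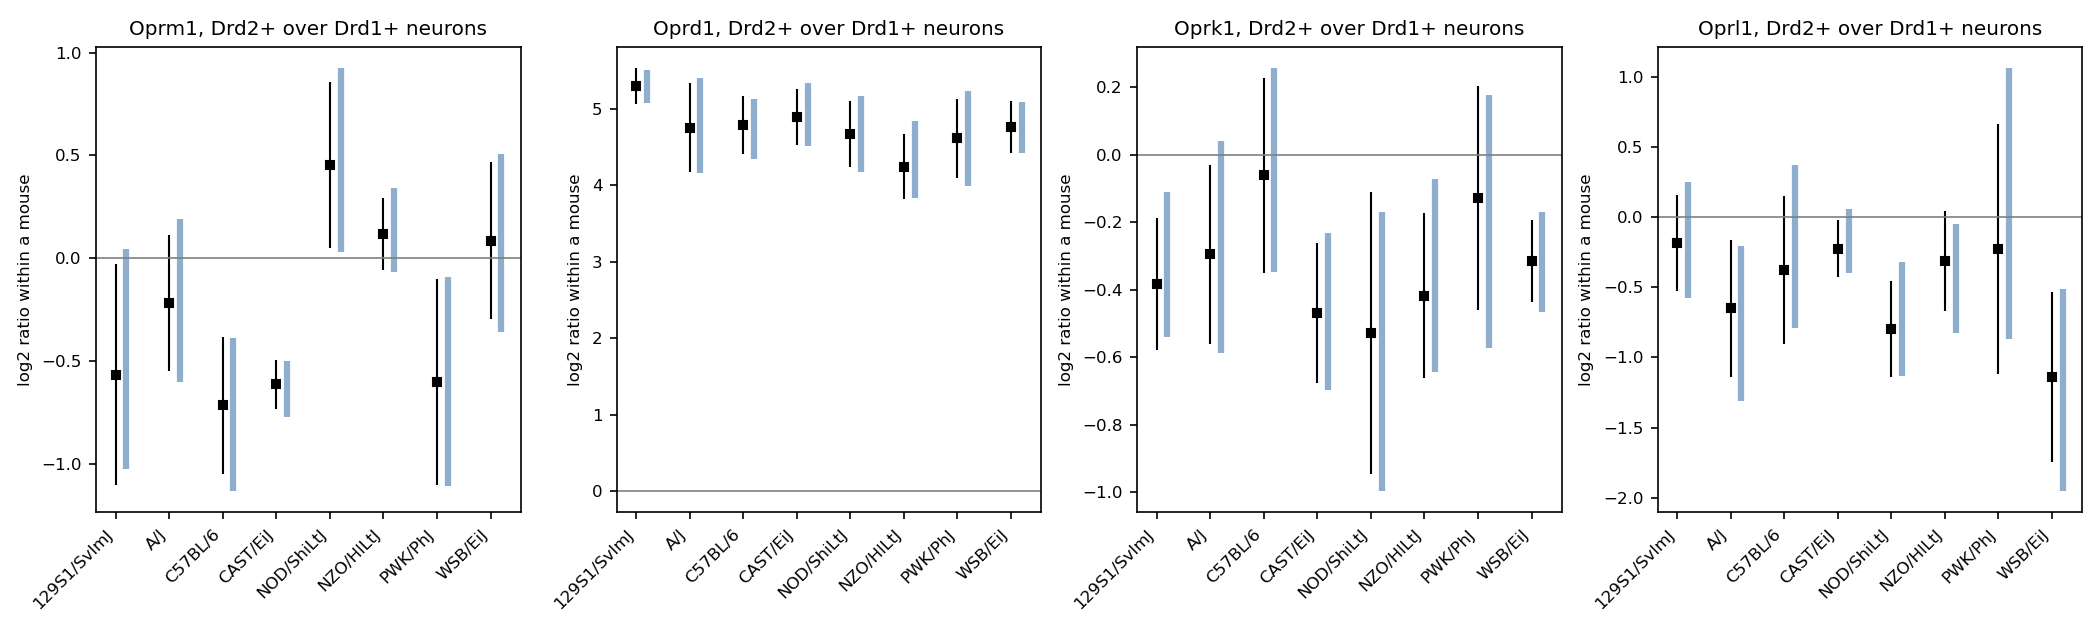
Log2 ratio of Drd2+ over Drd1+ neurons within a mouse (log2 CPM with a prior count of 2), by strain, for each receptor, with vertical scales that differ. Squares and thin bars are the mean ± SD of 4 mice, and blue bars the range. Oprm1 crosses 0 between strains, Oprd1 runs from 3.84 to 5.51 over the mice on this scale, which damps the ratio where Drd1+ counts are near 0, and Oprk1 and Oprl1 have strain means below 0 in all 8 strains.

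In the second Drd1+ cluster, Oprm1 was the one receptor with enough counts to test. WSB/EiJ was highest, with 230, 231, 267 and 200 CPM, and C57BL/6 lowest, with 66.1, 91.0, 33.4 and 69.1. The ranges did not overlap, and the means, 232 ± 27.6 and 64.9 ± 23.8, differed 3.58-fold (F = 8.56, adjusted p = 4.49e-06 with edgeR, at most 0.00310 under the alternatives, in a cluster where 17.3% of genes were called). WSB/EiJ, second lowest for Oprm1 in Drd1+ neurons, was thus highest here, though the difference between these clusters was not tested. PWK/PhJ had 176 ± 68.7 CPM and CAST/EiJ 107 ± 52.7. Ipcef1 was highest in WSB/EiJ too (75.7 CPM, against 34.0 in A/J), with an adjusted p of 0.0351 in edgeR. That Ipcef1 call was lost in DESeq2 (0.1195), with no filter on low counts (0.0662), without the block (0.111) and without any 1 batch (0.10035 to 0.126). The 14 other striosome genes summed to 5727 CPM in WSB/EiJ, the lowest of the strains, and to 7117 in C57BL/6, the highest. The part of these values in the Oprm1 difference was not tested.

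Of the clusters tested, macrophages gave the largest fold between strains for Oprm1, while in CPM the strain means spanned more in the second Drd1+ cluster. The 4 mice of 129S1/SvImJ had 169, 164, 242 and 154 CPM, and those of C57BL/6 13.9, 27.1, 34.6 and 10.1. These ranges did not overlap, and the means of 182 ± 40.6 and 21.4 ± 11.4 differed 8.51-fold (F = 10.9, adjusted p = 8.21e-09 with edgeR, at most 2.49e-05 under the alternatives, where 24.8% of genes were called). The counts behind these means are low, 72 UMIs in 320 nuclei of 129S1/SvImJ and 8 in 341 nuclei of C57BL/6. PWK/PhJ had 120 ± 29.6 CPM and A/J 85.0 ± 0.517, and NOD/ShiLtJ, at 31.0 ± 14.8, was next to C57BL/6 at the low end.

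Ipcef1, the gene that overlaps Oprm1 on the other strand, was itself high in macrophages at 156 ± 17.8 CPM. Its strain means, over the TMM-scaled total, ran from 86.5 in NOD/ShiLtJ and 95.7 in C57BL/6 to 289 in 129S1/SvImJ and 295 in PWK/PhJ. Its strain term had an adjusted p of 6.05e-09 in edgeR. Macrophage nuclei with an Ipcef1 UMI had 160 CPM of Oprm1, and those without had 41.7. In the nuclei without an Ipcef1 UMI, Oprm1 was 92.5 ± 33.5 CPM in 129S1/SvImJ, 14.2 ± 10.8 in C57BL/6 and 12.8 ± 9.36 in WSB/EiJ. These means rest on 31, 6 and 5 UMIs and carry no test, and WSB/EiJ stood below C57BL/6 there. They are over all UMIs of those nuclei, not over the TMM-scaled total behind the strain means, so their sizes are not comparable with those means. A nucleus without an Ipcef1 UMI can still hold RNA of that gene. Macrophage nuclei with an Oprm1 UMI (226 of 2638) had 5130 CPM of macrophage markers, against 5846 in those without. Their pan projection neuron markers summed to 628 CPM against 562. By strain, over the TMM-scaled total, the sum in macrophages ran from 581 in C57BL/6 to 787 in PWK/PhJ. Mrc1, a marker of macrophages at brain borders, was at 5.21 CPM in nuclei with an Oprm1 UMI, near the floor, and at 59.6 in the others. Cx3cr1 (1264 against 1290 CPM), P2ry12 (1441 against 1529) and Csf1r (1116 against 1253) differed less. C1qa and Tmem119, which are also part of the macrophage marker sum, were not compared singly. These marker values carry no test. The part of Ipcef1 reads in the macrophage values was not tested.

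The same split was made in 7 other clusters, chosen after their levels were seen. Sst+ interneurons and ependyma, with 9 and 24 Ipcef1 UMIs in all, were not among them. Chat+ interneurons were split though only 13 of their 120 nuclei held an Ipcef1 UMI. Oprm1 was 173 CPM in Slc17a7+ nuclei with an Ipcef1 UMI and 98.4 in those without, and 203 against 110 in the second Drd1+ cluster. In Chat+ interneurons it was 320 against 126, in Drd1+ neurons 159 against 40.0, and in Drd2+ neurons 109 against 33.6. Oprm1 was thus higher in nuclei with an Ipcef1 UMI in all 8 clusters examined, whose Ipcef1 levels ranged from 217 ± 10.1 CPM in Slc17a7+ neurons to 6.12 ± 0.714 in Drd1+ neurons.

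**Figure D4:**
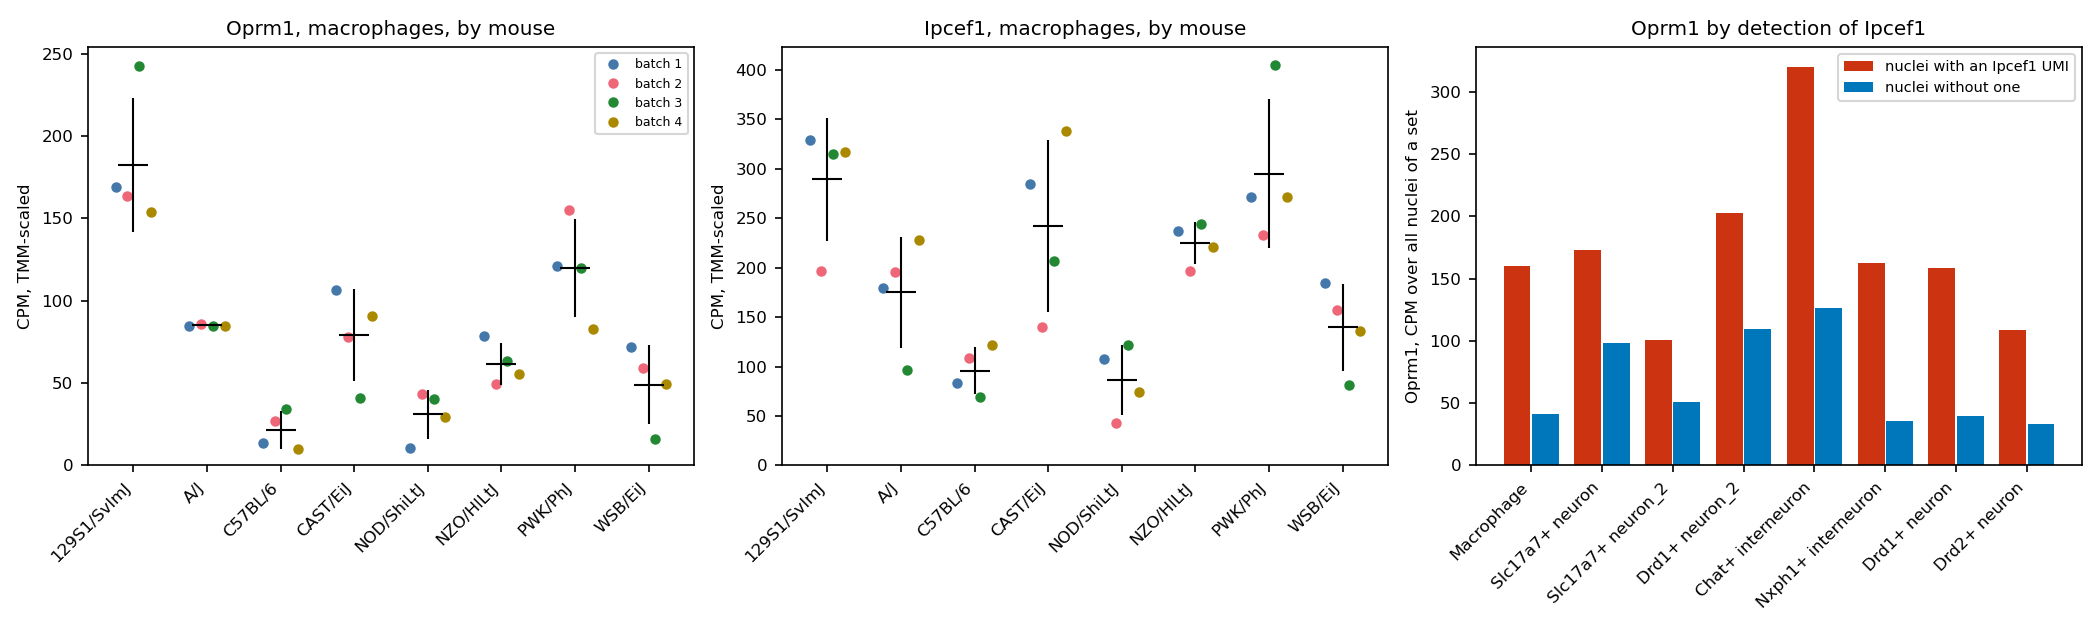
Left and middle, Oprm1 and Ipcef1 per mouse in macrophages by strain, in CPM over the TMM-scaled library total, with the mean ± SD of 4 mice. Right, Oprm1 in nuclei with and without an Ipcef1 UMI in 8 clusters, in CPM from summed counts. 129S1/SvImJ and PWK/PhJ are high and C57BL/6 and NOD/ShiLtJ low for both genes, and each red bar is above its blue neighbour.

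Oprd1 varied less between strains. In Drd2+ neurons it was highest in NOD/ShiLtJ, with 83.9, 72.4, 92.6 and 73.5 CPM, and lowest in NZO/HlLtJ, with 42.4, 32.7, 51.7 and 56.4. The ranges did not overlap, and the means of 80.6 ± 9.54 and 45.8 ± 10.5 differed 1.76-fold (F = 8.63, adjusted p = 5.65e-06 with edgeR, at most 0.00178 under the alternatives). The other 6 strain means lay between 52.0 and 68.2 CPM. Against the other 7 strains NOD/ShiLtJ was higher by 0.45 (SE 0.08, adjusted p = 9.33e-05 with edgeR, with 7.58% of genes called higher). NZO/HlLtJ was lower by -0.48 (SE 0.09, adjusted p = 1.62e-04 with edgeR, with 7.72% called lower). CAST/EiJ was lower by -0.28 (adjusted p = 0.0251 with edgeR, with 13.3% called lower). That last call was lost without the batch block (0.0918) and without batch 1 (0.153), batch 2 (0.119) or batch 3 (0.0902). The strains with the most and the least Oprd1 were thus among the lower and the highest for Oprm1 in the same neurons, 32.6 and 62.2 CPM. CAST/EiJ, however, was second lowest for both receptors. A relation between the receptors over the strains was not tested.

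Oprk1 followed a like order in both projection neuron types, with WSB/EiJ highest and CAST/EiJ lowest. In Drd1+ neurons WSB/EiJ had 52.9, 53.1, 61.5 and 77.1 CPM and CAST/EiJ 19.8, 31.4, 35.1 and 36.4. In Drd2+ neurons WSB/EiJ had 42.8, 47.1, 49.1 and 55.6 CPM and CAST/EiJ 16.8, 20.8, 27.0 and 22.2. Neither pair of ranges overlapped. The means differed 1.99-fold in Drd1+ neurons (61.1 ± 11.4 against 30.7 ± 7.55, F = 9.38, adjusted p = 1.17e-05 with edgeR, at most 0.00853 under the alternatives). They differed 2.24-fold in Drd2+ neurons (48.6 ± 5.34 against 21.7 ± 4.22, F = 5.05, adjusted p = 0.00247 with edgeR, at most 0.0443). Against the other 7 strains, CAST/EiJ was lower by -0.66 in Drd1+ neurons (adjusted p = 9.58e-05, with 15.9% of genes called lower) and by -0.84 in Drd2+ neurons (6.09e-04, with 13.3%). WSB/EiJ was higher by 0.51 (7.80e-04, with 9.66% called higher) and 0.52 (0.00924, with 8.54%). NOD/ShiLtJ was higher by 0.43 in Drd1+ neurons (0.00649, with 9.4%), and PWK/PhJ lower by -0.31 (0.0365, with 17.3% called lower).

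Of these Oprk1 contrasts, the WSB/EiJ call in Drd2+ neurons was lost without batch 2 (adjusted p = 0.104) and without batch 4 (0.0722). The NOD/ShiLtJ call was lost without the batch block (0.10002) and without batch 1 (0.0580). The PWK/PhJ call was lost without the block (0.232), without batch 1 (log2 fold change -0.16, adjusted p = 0.297) and without batch 3 (0.184). The CAST/EiJ calls held under every alternative run.

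Oprl1 did not pass the strain test in either cluster. In Drd1+ neurons its strain means ran from 3.27 ± 1.55 CPM in 129S1/SvImJ to 6.25 ± 1.27 in NOD/ShiLtJ, with overlapping ranges (F = 1.47, adjusted p = 0.252 with edgeR). In Drd2+ neurons they ran from 1.55 ± 1.14 in WSB/EiJ to 3.77 ± 0.561 in CAST/EiJ (F = 1.76, adjusted p = 0.169 with edgeR), a 2.44-fold difference in which the WSB/EiJ mice, at most 3.03, lay below the CAST/EiJ mice, at least 3.24. The counts were low, 432 and 228 UMIs over 32 mice.

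Genes that go with a receptor were sought within a cluster, by setting nuclei with a receptor UMI against nuclei without one from the same mouse, matched for depth. The receptor itself was left out, and edgeR's quasi-likelihood test used the mouse as a block. In Drd1+ neurons, 2804 nuclei had an Oprm1 UMI, and 434 of 6902 genes were higher in them and 516 lower (6.29% and 7.48%). Of the 12 striosome genes that could be tested, 11 were higher and 0 lower, with a median log2 fold change of 0.84, against 0.00 over all genes tested. Sema5b, a guidance molecule of the semaphorin family, rose most, from 20.2 to 60.0 CPM (log2 fold change 1.62, SE 0.10, adjusted p = 1.49e-26, higher in 32 of 32 mice). Bach2, a transcription factor, rose by 1.22, and Khdrbs3, an RNA-binding splicing factor, by 1.16. Nnat (1.13), Pde1c (0.91), Lypd1 (0.84), Tshz1 (0.84) and Kremen1 (0.77) rose as well. So did Pdyn, the dynorphin precursor, by 0.61 (from 56.3 to 81.9 CPM, in 27 of 32 mice) and Tac1, the substance P precursor, by 0.47. Tshz1 also stands in the list of eccentric markers, and it was the 1 gene of those 5 with enough counts to test. Foxp2 rose by 0.16, and Nr4a1 did not pass the test (0.11, adjusted p = 0.534).

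Matrix genes went the other way in the same Drd1+ nuclei. Of 10 tested, 5 were lower and 1 higher, with a median log2 fold change of -0.27. Epha4, an Eph receptor, fell by 0.57 on the log2 scale, from 381 to 257 CPM, and was lower in 32 of 32 mice. Sgk1, a kinase, fell by 0.71, Id4 by 0.60, Gpr155 by 0.55 and Sv2b by 0.30, while Gda rose by 0.19. Calb1, the calcium buffer often used to mark the matrix, did not pass the test (0.02, adjusted p = 0.925). Of the genes tested Pde1a rose most, by 1.89, from 39.3 to 156 CPM. Ipcef1, which overlaps Oprm1, was not among the genes tested, and over all nuclei it had 17.3 CPM in those with an Oprm1 UMI and 3.56 in those without. Pde1a was followed by Gm45323 (1.85), C130073E24Rik (1.82), Gm2516 (1.80), Gm45341 (1.74) and 4930555F03Rik (1.63), transcripts with no established role. The largest falls were those of Sox2ot (-1.38), the guidance cue Slit2 (-1.29), Rasgrf2 (-1.28) and Sulf1 (-1.21). Drd1 itself did not pass the test (-0.02, adjusted p = 0.876). Of the 6 Drd1 markers 2 were higher, the Pdyn and Tac1 already given, and 2 lower, Ebf1 (-0.55) and Eya1 (-0.85), with a median of 0.05. Of the 6 pan projection neuron markers Meis2 was higher (0.13), and Rgs9 (-0.16), Ppp1r1b (-0.15) and Pde10a (-0.08) were lower. Penk, the 1 Drd2 marker tested, did not pass (0.23, adjusted p = 0.0684). Their part in the striosome and matrix values was not tested.

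In Drd2+ neurons the Oprm1 UMI split, of 2017 nuclei, gave 251 higher and 287 lower genes of 5468 tested (4.59% and 5.25%). Of 8 striosome genes tested, 5 were higher and 0 lower, with a median of 0.33. These were Nnat (1.04), Pde1c (0.59), Bach2 (0.44), Tshz1 (0.35) and Khdrbs3 (0.32). Matrix genes were divided: Stxbp6 (0.69), Cntnap5a (0.38), Calb1 (0.27) and Gda (0.24) were higher, and Id4 (-0.34), Gpr155 (-0.28) and Epha4 (-0.25) lower. Of the genes tested Pde1a (1.84) again rose most, then Prkg1, a cyclic GMP-dependent kinase, by 1.56 (187 to 540 CPM). Ipcef1, not tested here either, had 25.5 CPM in all nuclei with an Oprm1 UMI and 6.87 in those without. Grm8, a glutamate receptor, fell by 1.12 and Cnr1, the cannabinoid receptor, by 0.77. Oprk1 was higher in Drd2+ nuclei with an Oprm1 UMI, 46.9 against 36.0 CPM (0.39, SE 0.11, adjusted p = 0.0145 with edgeR). Oprd1 did not pass the test there (-0.11, adjusted p = 0.546), nor did Drd2 (-0.06, 0.389). Of the 6 pan projection neuron markers tested, 0 were higher and 3 lower, with a median of -0.11, Rgs9 (-0.23) and Pde10a (-0.19) among them. The 1 eccentric marker tested was the Tshz1 counted above. The part of these markers in the striosome values was not tested.

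The delta and kappa receptors were split in the same way. In Drd2+ neurons, 3553 nuclei had an Oprd1 UMI, and 85 genes were higher and 152 lower of 7480 tested (1.14% and 2.03%). Of 12 striosome genes tested, 0 were higher and 5 lower: Sema5b (-0.54), Tac1 (-0.50), Nr4a1 (-0.46), Khdrbs3 (-0.34) and Foxp2 (-0.21). Tac1 is also a Drd1 projection neuron marker, the 1 of 6 tested there, and the part of Drd1+ RNA in its value was not tested. That count of 5 fell to 1 without the mouse block and stayed at 4 or 5 without any batch. Of 10 matrix genes tested, 2 were higher and 1 lower. The largest falls were those of Pcdh15 (-1.36), a protocadherin, the receptor tyrosine kinase Alk (-1.19), Pde1a (-0.98) and Slc8a1 (-0.87). The largest rise was that of Astn2 (0.45). In Drd1+ neurons, 3440 nuclei had an Oprk1 UMI, with 106 genes higher and 167 lower of 8063 (1.31% and 2.07%). Of 13 striosome genes tested, 0 were higher and 4 lower: Nr4a1 (-0.59), Sema5b (-0.48), Khdrbs3 (-0.27) and Bach2 (-0.18). That count of 4 fell to 0 without the block, to 2 without batch 2 and to 1 without batch 4. Of 10 matrix genes tested, 1 was higher and 1 lower. Ntn1, a netrin, rose most (0.65), then the sodium channel Scn9a (0.56) and the dopamine receptor Drd3 (0.49). The activity genes Nr4a3 (-0.69) and Egr3 (-0.61) fell. In Drd2+ neurons the Oprk1 split gave 59 higher and 71 lower of 6225 (0.948% and 1.14%), and no striosome or matrix gene of the 20 tested passed. The difference between receptors in these list counts was not tested.

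**Figure D5:**
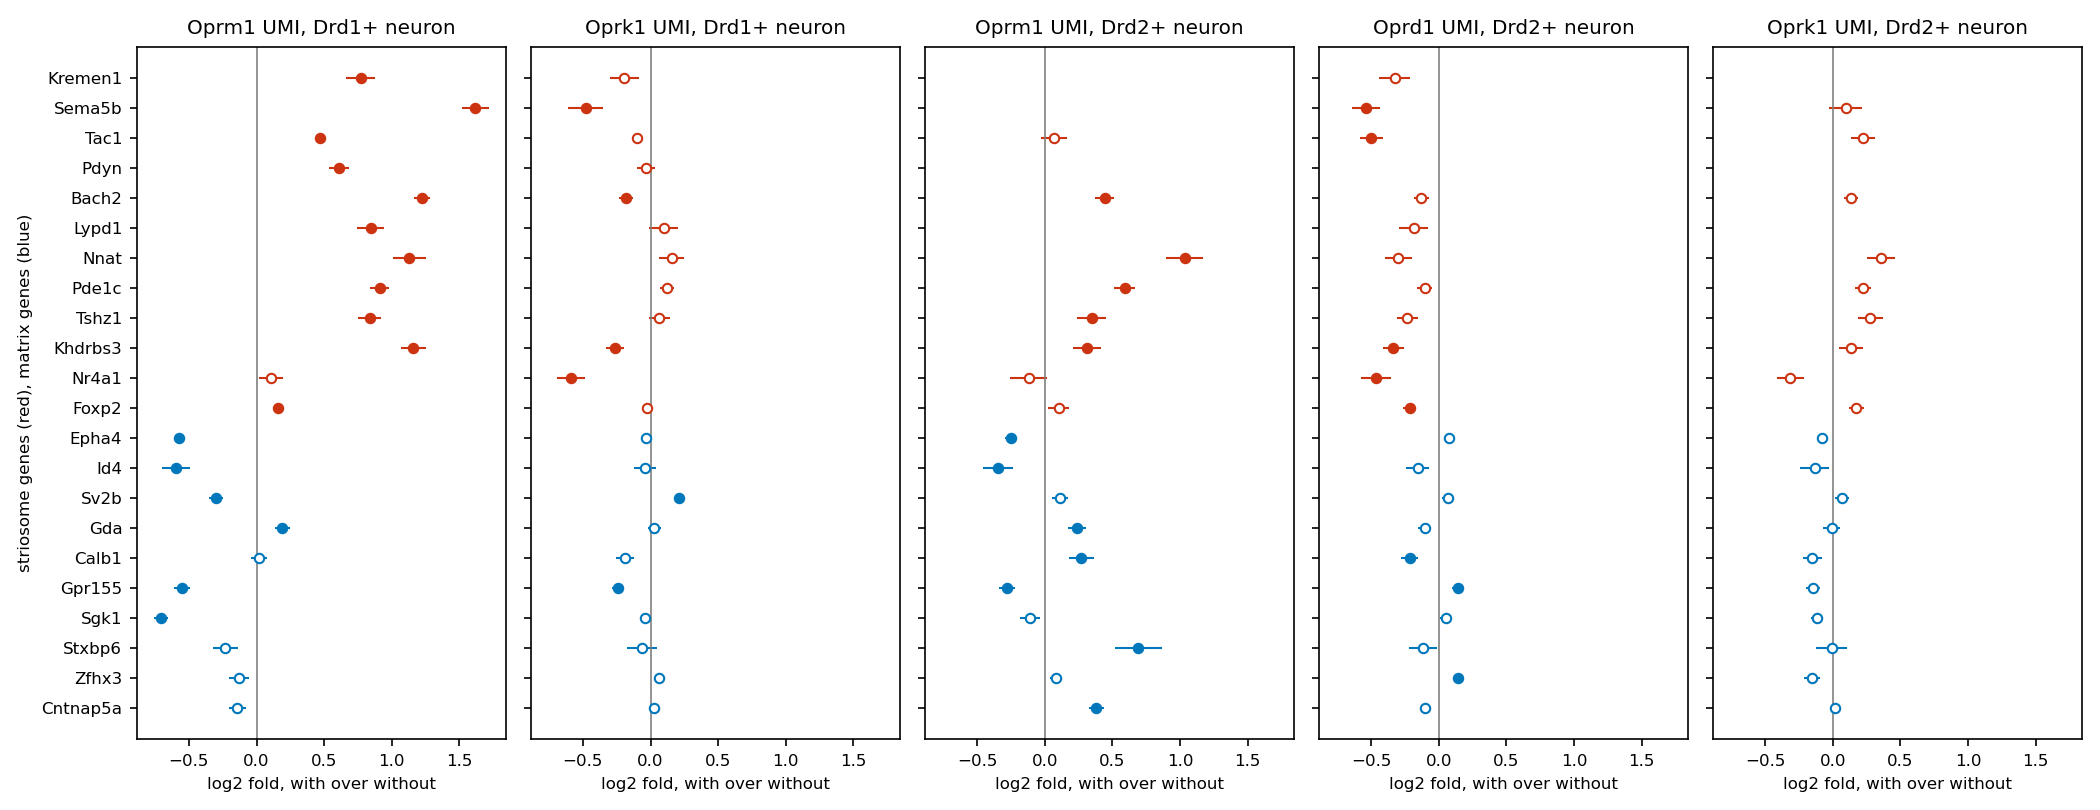
Log2 fold change (± SE) of striosome genes (red) and matrix genes (blue) between nuclei with and without a UMI of the receptor named above each panel. Filled points passed an adjusted p of 0.05, and a missing point was not tested. Red points lie right of 0 for Oprm1 in Drd1+ neurons, and left of 0 or around it for Oprk1 in Drd1+ and Oprd1 in Drd2+ neurons.

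Without the mouse block the calls for Oprm1 fell from 950 to 369 in Drd1+ neurons, from 538 to 146 in Drd2+ neurons and from 55 to 7 in the second Drd1+ cluster. The calls for Oprk1 in Drd1+ neurons fell to 2, for Oprd1 in Drd2+ neurons to 5 and for Oprk1 in Drd2+ neurons to 1. The 11 striosome genes called in the Oprm1 split of Drd1+ neurons stayed at a count of 11 without the block and without any batch. In Drd2+ neurons the count of 5 fell to 3 without the block and without batch 2. The 4 matrix genes higher there fell to 1 in both settings. Oprl1 in Drd1+ neurons (417 nuclei) gave 0 called genes of 1800 in edgeR, with 110 at an unadjusted p under 0.05. Oprm1 in macrophages, added after seeing the data, gave 0 of 264, with 12 at an unadjusted p under 0.05. Oprm1 in the second Drd1+ cluster, also added, gave 21 higher and 34 lower of 1565 (1.34% and 2.17%) over 21 mice. Grm8 was higher there (0.86) where it was lower in Drd2+ neurons. Of 7 striosome genes tested in that cluster, none passed.

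The rest of the opioid pathway was taken from 6 lists. By the strain term, 39 of the 56 genes tested of 68 were called in Drd1+ neurons and 36 of 55 in Drd2+ neurons, where 61.7% and 55.9% of all genes were called. Of the peptide precursors, Penk was called in both clusters. In Drd1+ neurons, where it is low, Penk ran from 78.3 ± 7.17 CPM in 129S1/SvImJ to 194 ± 32.2 in A/J (adjusted p = 2.94e-09). The 6 Drd2 markers summed to 228 CPM in A/J and 104 in 129S1/SvImJ, sums made up mostly of Penk itself. In Drd2+ neurons Penk ran from 987 ± 354 CPM in A/J to 1409 ± 425 in NOD/ShiLtJ (adjusted p = 4.27e-04). Pdyn in Drd1+ neurons was highest in NOD/ShiLtJ, the strain with the least Oprm1 there, at 94.1 ± 16.6 CPM. It was lowest in WSB/EiJ, second lowest for Oprm1, at 39.4 ± 13.7 (adjusted p = 2.23e-06, all from edgeR). PWK/PhJ, with the most Oprm1 there, had 65.0 ± 12.8 CPM of Pdyn. Pnoc, the nociceptin precursor, was too low to test in either cluster.

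Of the genes that process and break down peptides, 8 of 13 tested were called in Drd1+ and 9 of 13 in Drd2+ neurons, beside the 61.7% and 55.9% of all genes. Ace, a peptidase that can cleave enkephalins, ran from 5.64 ± 1.78 CPM in NZO/HlLtJ to 41.2 ± 3.57 in CAST/EiJ in Drd1+ neurons, a 7.31-fold difference. Its range in Drd2+ neurons was 2.76 ± 1.43 in 129S1/SvImJ to 25.2 ± 5.77 in CAST/EiJ. Scg5, the chaperone of the convertase PC2, was lowest in C57BL/6 and highest in PWK/PhJ in both (1.82-fold and 1.86-fold). Pcsk2, PC2 itself, and Cpe, the carboxypeptidase, differed 1.37-fold and 1.43-fold in Drd1+ neurons. Of the G protein subunits, 7 of 11 tested were called in Drd1+ and 6 of 12 in Drd2+ neurons, again near the shares of all genes. Gnb4 ran from 32.6 ± 2.69 CPM in CAST/EiJ to 89.9 ± 13.9 in NZO/HlLtJ in Drd1+ neurons, and Gnai1 from 43.3 ± 11.9 in PWK/PhJ to 71.0 ± 6.40 in NZO/HlLtJ. Gng7 and Gnb5 differed 1.44-fold and 1.34-fold there.

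Of the receptor kinases and arrestins, which desensitise the receptors, 5 of 6 tested were called in Drd1+ and 3 of 6 in Drd2+ neurons, where all genes were called at 61.7% and 55.9%. Grk5 was lowest in WSB/EiJ and highest in PWK/PhJ in both clusters (1.64-fold and 1.86-fold), Grk4 lowest in C57BL/6 and highest in CAST/EiJ (2.11-fold and 2.29-fold), and Arrb1 differed 1.36-fold and 1.55-fold. Of the RGS proteins and partners, which end G protein signals, 8 of 10 and 9 of 10 were called, above these shares but over few genes. Rgs9 was lowest in NZO/HlLtJ and highest in C57BL/6 in both (652 ± 53.0 against 922 ± 29.8 CPM in Drd1+ neurons). Rgs8 (1.69-fold), Rgs17 (1.85-fold) and Rgs10 (1.73-fold) were called too. Of the effectors, 10 of 14 and 9 of 13 were called. No list was tested against all genes. Kcnj3, a subunit of the potassium channel that opioid receptors open, ran from 7.37 ± 1.23 CPM in PWK/PhJ to 48.9 ± 2.32 in C57BL/6 in Drd1+ neurons, a 6.63-fold difference (adjusted p = 5.08e-06). In Drd2+ neurons it ran from 4.28 ± 1.94 in WSB/EiJ to 27.7 ± 2.39 in C57BL/6. Kcnj9, a partner subunit, was lowest in CAST/EiJ and highest in NZO/HlLtJ in both (2.69-fold and 2.37-fold). The calcium channels Cacna1b and Cacna1e differed 1.72-fold and 1.31-fold in Drd1+ neurons.

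Finally, the genes whose levels over the 18 clusters were most like each receptor were found by Pearson's r on log2(CPM + 1), among 16137 genes. The points share their libraries, and r is a description. For Oprm1 these were Gm40841 (0.91), Nos1ap (0.90) and Coro2a (0.90). For Oprd1 they were Trpc6 (0.85), Bves (0.84) and Gm26658 (0.82), each highest in Chat+ interneurons. For Oprk1 they were Lzts3 (0.90), Acvr1c (0.88) and Adamts3 (0.87). For Oprl1 they were Gm13780 (0.94), Lrrc55 (0.92) and Pappa2 (0.91). Among the receptors themselves, r was 0.79 between Oprm1 and Oprl1, 0.67 between Oprm1 and Oprd1, and 0.12 between Oprm1 and Oprk1.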

How the data were processed

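Nuclei of 4 batches of 8 strains were read with the 10x Multiome assay. The authors deposited UMI counts per gene and nucleus, not normalized. The submitters' processing notes name Cell Ranger ARC 2.0.0, bcl2fastq 2.20.0.422 and the build mm10 (GRCm38). The deposited table of nuclei gives strain, batch and cluster names (other, not a measurement), and peaks are listed by position only. Strain calls (Demuxlet), nucleus filters and doublet calls (DoubletFinder) were the authors' own, per the deposited file descriptions, and no further doublet caller was run. There were 0 columns of unmapped samples.

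The members and gene lists were chosen with earlier results of these data known. Counts were summed per mouse and cluster for libraries of 10 or more nuclei. A cluster was tested where each strain had 3 or more mice, with edgeR 4.0.16 (R 4.3.3) by quasi-likelihood on strain and batch after TMM scaling and a filter on low counts, adjusted by Benjamini-Hochberg and called under 0.05. The batch was kept as a block because the labels give the number as the batch. Same-batch mice of different strains had a median correlation of deviations of 0.195 over 112 pairs (other batches -0.0607 over 336 pairs). Contrasts set a strain against the mean of the other 7. Counts per mouse were 1710451 to 9416806 in Drd1+ neurons, 1251786 to 6803437 in Drd2+ neurons and 27325 to 365425 in macrophages, which sets the precision.

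For the receptor UMI comparisons, nuclei without a UMI were drawn within 10 depth bands of a mouse to match those with one, where 8 or more mice had 10 or more nuclei of each kind. Besides striosome, matrix, receptor, marker and pathway genes, genes are named from the largest 8 rises and 4 falls among called genes of at least 10 CPM. Not all of these are named in every split. Pathway genes are named where called in both large clusters, at most 4 a list by F, and peptide precursors were added after their values were seen. The 3 genes most like each receptor over clusters are named by Pearson's r. In simulated Drd1+ data, 200 of 13039 genes were changed 2-fold in a single strain, with no batch difference. Of these changes 86% were recovered, with 7.03% of calls false, and 81% with 5.81% in Drd2+ neurons. The real data have many more genes called and have batches, so these rates describe that setting only. Alternatives were DESeq2 1.42.0, limma-voom (limma 3.58.1), no filter, no batch block, at least 30 nuclei or 1000 UMIs, and leaving out each batch. Sequences are RefSeq's for GRCm38.p6.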

Additional observations from a re-analysis of the deposited data

Results flagged for a closer look

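Of 72 groups of 4 mice and 37 cluster levels over 4 batches, 5 held a value far from the other 3 (by Dixon's test at its 95% critical value), and chance gives about 1 in 20. Oprm1 in the second Drd1+ cluster was 186 CPM in the CAST/EiJ mouse of batch 2, against 74.8 to 88.4 in the others. Oprm1 in macrophages was 242 CPM in the 129S1/SvImJ mouse of batch 3, against 154 to 169. Oprl1 in Drd2+ neurons was 2.89 CPM in the NZO/HlLtJ mouse of batch 1, against 3.95 to 3.96. Oprd1 in mural cells was 69.6 CPM in batch 3, against 8.27 to 17.6. Oprm1 in macrophages was 57.8 CPM in batch 4, against 66.8 to 67.8.

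The strain effect on Oprm1 differed between Drd1+ and Drd2+ neurons by the interaction test of edgeR (adjusted p = 0.0363). The range over the alternatives was 7.64e-06 to 0.313, and the call was lost without batch 1, without batch 3 and without the mouse block (0.198).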

How the results depend on the processing

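The strain term of every receptor kept its side of the threshold in all 89 alternatives, and no result reversed. Of the strain contrasts called, 16 alternatives lost a call, each named in the report, and the Drd2+ to Drd1+ ratios moved by less than their spread in all 24. The batch is a replicate block by the labels, and it is the block of the strain tests. In the interaction and the receptor UMI comparisons the block is the mouse, and no replicate block means there that the mouse was left out. The Oprm1 interaction had an adjusted p in edgeR of 0.198 with no replicate block and 0.00490 to 0.313 without each batch. Counts of genes that go with a receptor UMI rested on the mouse block. With no replicate block they were 369 for Oprm1 and 2 for Oprk1 in Drd1+ neurons, 146 for Oprm1, 5 for Oprd1 and 1 for Oprk1 in Drd2+ neurons, and 7 for Oprm1 in the second Drd1+ cluster. Against all nuclei without a UMI, not matched for depth, they were 15 for Oprl1 in Drd1+ neurons, 460 for Oprd1 and 232 for Oprk1 in Drd2+ neurons, 125 for Oprm1 in the second Drd1+ cluster and 2 in macrophages. Leaving out each batch gave 159 to 240 for Oprk1 in Drd1+ neurons, 300 to 479 for Oprm1, 152 to 199 for Oprd1 and 56 to 114 for Oprk1 in Drd2+ neurons, and 17 to 52 for Oprm1 in the second Drd1+ cluster. The 5 striosome genes higher with Oprm1 in Drd2+ neurons were 3 with no replicate block and 3 to 4 without each batch. The 4 lower with Oprk1 in Drd1+ neurons were 0 with no replicate block and 1 to 5 without each batch, and the 5 lower with Oprd1 in Drd2+ neurons were 1 and 4 to 5. The cause was not tested.

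Averaged over the 3 mice with enough nuclei, Chat+ interneurons had 124 ± 80.1 CPM of Oprm1 (SD), 111 ± 75.0 of Oprd1 and 9.20 ± 15.9 of Oprk1, and over 2 mice Sst+ interneurons had 107 ± 33.9 of Oprm1. Slc17a7+ neurons had 151 ± 34.4 of Oprm1 over 20 mice. Without nuclei that held an Ipcef1 UMI, Oprm1 was 142 CPM in Chat+ interneurons, 111 in Slc17a7+ neurons, 110 in the second Drd1+ cluster, 55.8 in the second Slc17a7+ cluster, 41.5 in macrophages, 40.6 in Drd1+ neurons, 35.5 in Nxph1+ interneurons and 33.8 in Drd2+ neurons, a setting chosen after seeing the data. Of 216 alternative shares of nuclei, 87 moved with the thinning depth. With receptor counts below the filter elsewhere, Oprd1 was tested only in Drd2+ neurons, and Oprk1 and Oprl1 only in Drd1+ and Drd2+ neurons. Oprm1 was tested in those clusters, in the second Drd1+ cluster and in macrophages.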

Other observations

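Some other genes of the opioid pathway also went with an Oprm1 UMI in projection neurons, where 6.29% of all genes were higher and 7.48% lower in Drd1+ neurons and 4.59% and 5.25% in Drd2+ neurons. In Drd1+ neurons, 3 of 9 peptide processing genes tested were higher in nuclei with an Oprm1 UMI and 0 lower: Pam, which amidates peptides (0.46 on the log2 scale, from 320 to 438 CPM, in 30 of 32 mice), Mme, the peptidase neprilysin that cleaves enkephalins (0.29, in 30 of 32), and Cpe (0.14). In Drd2+ neurons 0 of 9 were higher and 1 lower. Of the effectors, 2 of 11 were higher and 1 lower in Drd1+ neurons, and 0 of 10 and 1 in Drd2+ neurons. Of the receptor kinases and arrestins, 0 of 2 passed in either. Of the RGS proteins and partners, 2 of 8 were higher and 3 lower in Drd1+ neurons, and 1 of 8 and 3 in Drd2+ neurons. Of the G protein subunits, 1 of 10 and 1 of 7 were higher and 0 lower. The G protein subunit Gnb4 was higher (0.51, from 64.2 to 87.4 CPM). Rgs17 was higher in Drd1+ neurons (0.61, from 187 to 280 CPM, in 32 of 32 mice) and in Drd2+ neurons (0.41, from 169 to 221 CPM, in 29 of 32). Rgs9, Rgs7bp and Rgs4 were lower in both, Rgs9 by -0.16 and -0.23. Gnai1, an inhibitory G protein alpha subunit, was higher in Drd2+ neurons (0.66, from 23.9 to 38.1 CPM, in 27 of 32 mice).

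In the Oprd1 split of Drd2+ neurons, 1.14% of all genes were higher and 2.03% lower. Of 9 peptide processing genes tested there, 0 were higher and 1 lower, Pam (-0.17). Of 6 Drd2 markers, 0 were lower and 1 higher, Adora2a, the adenosine receptor that marks these neurons (0.15, from 165 to 185 CPM, in 22 of 32 mice). In the Oprk1 split of Drd1+ neurons, 1.31% of all genes were higher and 2.07% lower. Of 10 RGS proteins and partners tested there, 2 were lower and 1 higher, Rgs10 (0.42, from 15.7 to 21.0 CPM, in 26 of 32 mice). Of 9 peptide processing genes, 0 were higher and 2 lower, Pam (-0.16) among them. In the second Drd1+ cluster Pam was lower with an Oprm1 UMI (-0.48, from 598 to 435 CPM), where it was higher in Drd1+ neurons, and the difference between the clusters was not tested. All these values passed an adjusted p of 0.05 in edgeR, with the mouse as a block. Without that block, Cpe (adjusted p = 0.176), Rgs9 (0.114), Rgs7bp (0.111) and Rgs4 (0.271) in the Oprm1 split of Drd1+ neurons did not pass in edgeR, nor did the values named for the Oprd1 split and the Oprk1 split (0.332 for Rgs10, and higher for the others).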
